A study of Rattus norvegicus with 6 samples.

Results

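The miR-15/16 family is a group of small regulatory RNAs that carry the same seed, the stretch near the 5′ end with which a miRNA pairs to its target transcripts. The members described here are the 8 sequences of the miR-15, miR-16, miR-195 and miR-497 precursors that the study's count table lists under rat names, out of 867 listed miRNA sequences in all. They were chosen by name. They are rno-miR-16-5p, rno-miR-16-3p, rno-miR-15b-5p, rno-miR-15b-3p, rno-miR-15a-5p, rno-miR-195-5p, rno-miR-195-3p and rno-miR-497-5p, where 5p and 3p name the arm of the hairpin precursor that a mature miRNA comes from.

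The 6 small RNA libraries analysed here came from serum exosomes, small vesicles that cells release into the blood, of male Sprague-Dawley rats aged 6 to 8 weeks on a normal diet. NXT-Exo (5 libraries) came from rats gavaged daily with Naoxintong Capsule (NXT), a traditional Chinese medicine, at 1000 mg/kg/d, and Ctl-Exo (1 library, replicate 5) from rats gavaged with saline at 5 mL/kg/d. The sample titles give 7 days of dosing, whereas the treatment field of NXT-Exo 1 to 5 reads 7, 8, 9, 10 and 11 days in turn and that of Ctl-Exo 5 reads 11 days. Columns of the count table named Ctl-Exo 1 to 4 matched none of the sample labels used here and were not analysed. Each group had 10 rats, and the labels do not say whether a library was 1 rat or a pool, so the spread given here is that between libraries and may be partly technical. The libraries held 1168686 to 3781718 listed miRNA reads in NXT-Exo, and Ctl-Exo 5 held 1890463. Levels are given as CPM, the reads of a miRNA relative to the listed reads of its library, scaled with edgeR's TMM factors. A single read amounted to 0.261 to 0.782 CPM in the NXT-Exo libraries and to 0.544 CPM in Ctl-Exo 5. A read covers a whole miRNA, so CPM was not divided by length. Confidence intervals for Ctl-Exo 5 are 95% Wilson intervals and cover counting error only.

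As background, miRNAs of the family repress transcripts of cell-cycle and survival genes, among them cyclin D1, cyclin E1 and BCL2. miR-15a and miR-16 are known as tumour suppressors lost in chronic lymphocytic leukaemia. miR-16 is abundant in blood, red cells included, and has been used as a reference in serum assays, while miR-195 and miR-497 are made from 1 shared transcript and are studied in heart and skeletal muscle.

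The 5p members are shown first because their shared start defines the family and their ends tell them apart. They are written 5′ to 3′ as DNA letters as the table lists them, with the seed (bases 2 to 8) in capitals.
rno-miR-16-5p: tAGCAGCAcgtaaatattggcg
rno-miR-195-5p: tAGCAGCAcagaaatattggc
rno-miR-15b-5p: tAGCAGCAcatcatggtttaca
rno-miR-15a-5p: tAGCAGCAcataatggttt
rno-miR-497-5p: cAGCAGCAcactgtggtttgta

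All 5 share the 8 bases AGCAGCAC at positions 2 to 9. Over their first 19 bases, miR-15a-5p and miR-15b-5p differed at 1 position and miR-16-5p and miR-195-5p at 2, whereas miR-16-5p and miR-497-5p differed at 9. The closest pairs by sequence were thus miR-15a with miR-15b and miR-16 with miR-195, and the genomic pairs given next are others.

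The 3p members are shown because they come from the same hairpins and carry other seeds, again in capitals.
rno-miR-16-3p: aCCAATATtattgtgctgctt
rno-miR-195-3p: cCAATATTggctgtgctgctcca
rno-miR-15b-3p: cGAATCATtatttgctgctcta

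No other listed sequence had the seed of any of these 3. The listed sequences of 7 members equal a mature sequence in RefSeq, and rno-miR-15a-5p is listed with 19 bases. On the RefSeq assembly GRCr8, the 5p arm of miR-15b lies at chr2:155555197-155555218 and that of miR-16 at chr2:155555343-155555364, both on the plus strand, with 146 bases between their starts. Both genes lie within Smc4, which encodes a condensin subunit. The 5p arm of miR-497 lies at chr10:55450172-55450193 and that of miR-195 at chr10:55450509-55450529, with 337 bases between their starts, and neither gene lies within another listed gene.

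Within the serum exosomes the family was carried almost wholly by the miR-15b/16 pair. Together the 8 members held 0.330, 0.387, 0.382, 0.480 and 0.401% of the listed reads in NXT-Exo 1 to 5 and 0.446% in Ctl-Exo 5. The mean of NXT-Exo was 0.396 ± 0.054% (SD, n = 5), and Ctl-Exo 5 lay within the NXT-Exo range, below NXT-Exo 4. Of all reads whose sequence carried the seed, the 5p members held 98.3 to 99.0% in NXT-Exo and 99.2% in Ctl-Exo 5.

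**Figure D1:**
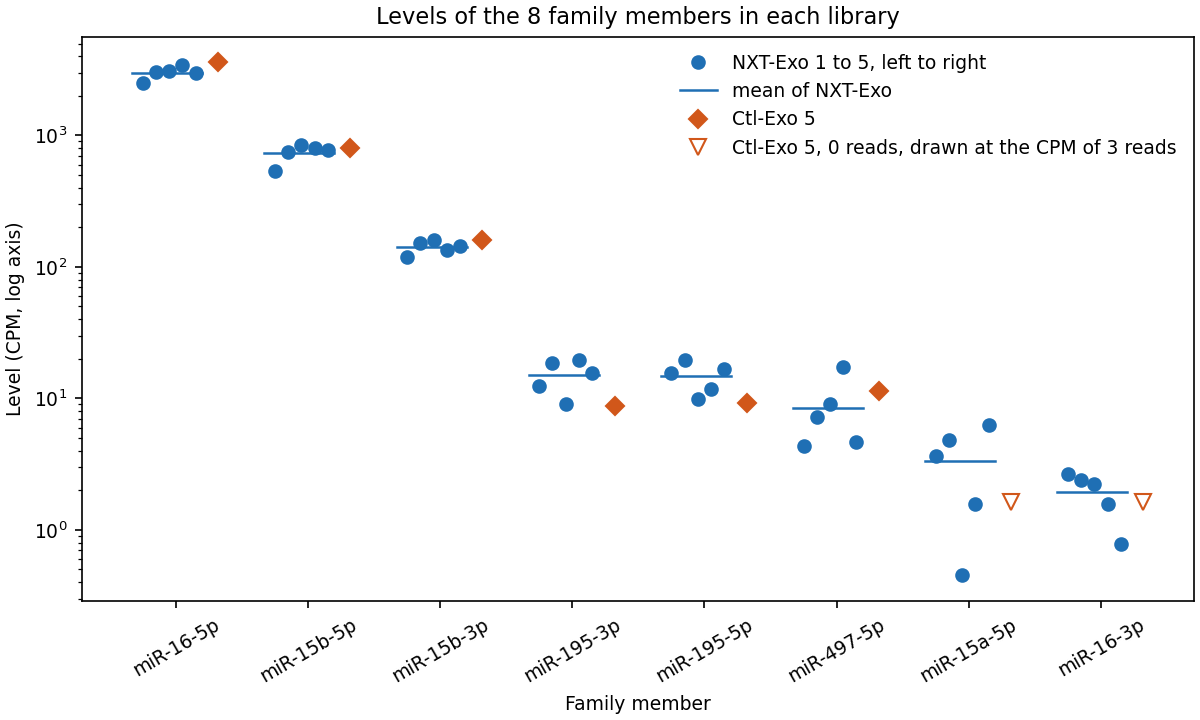
Level of each family member in CPM (log axis) in the 5 NXT-Exo libraries (circles, in replicate order, with a line at their mean) and in Ctl-Exo 5 (diamond, or an open triangle at the CPM of 3 reads where it had 0). The 3 most abundant members sit at about the same level in all 6 libraries, and the members below 20 CPM scatter more.

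rno-miR-16-5p was the most abundant member, at rank 43 of the table. Its level was 2511, 3055, 3072, 3408 and 2982 CPM in NXT-Exo 1 to 5 and 3593 CPM in Ctl-Exo 5, with an interval of 3508 to 3681 CPM. Ctl-Exo 5 was the highest of the 6 libraries and NXT-Exo 1 the lowest, so the groups did not overlap on this scale. When the reads were scaled to the listed totals with no further factor they did overlap, with Ctl-Exo 5 at 3491 CPM and NXT-Exo at 2590 to 3731 CPM. The mean of NXT-Exo was 3006 ± 321.8 CPM (SD, n = 5). Among the NXT-Exo libraries miR-16-5p was one of the steadier miRNAs, with an SD of 0.16 on the log2 scale, and 12.4% of the 467 tested miRNAs had a smaller SD.

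rno-miR-15b-5p, its neighbour on chromosome 2, followed at rank 80. It stood at 532, 747, 840, 796 and 780 CPM in NXT-Exo 1 to 5 and at 806 CPM in Ctl-Exo 5. NXT-Exo 1 was again the lowest library and NXT-Exo 3 the highest, and Ctl-Exo 5 lay inside the range of 739 ± 120.5 CPM (mean and SD, n = 5).

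rno-miR-15b-3p, from the other arm of that hairpin, was measured at 119, 153, 160, 134 and 144 CPM in NXT-Exo against 161 CPM in Ctl-Exo 5. Ctl-Exo 5 was the highest library but exceeded NXT-Exo 3 by little, since its interval of 143 to 180 CPM also took in NXT-Exo 2 and NXT-Exo 5. The NXT-Exo mean was 142 ± 16.1 CPM (SD, n = 5).

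rno-miR-16-3p, the other arm of miR-16, was close to the limit of detection. It had 8, 8, 5, 2 and 3 reads in NXT-Exo 1 to 5 and 0 in Ctl-Exo 5, where 3 reads would be 1.63 CPM. The NXT-Exo mean of 1.93 ± 0.76 CPM (SD, n = 5) was at least 1.18-fold higher than that floor. NXT-Exo 4 and NXT-Exo 5, at 1.56 and 0.782 CPM, lay under it, so a difference was not detectable at this depth.

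The pair of miR-497 and miR-195 on chromosome 10 stood far below the miR-15b/16 pair. rno-miR-195-5p was at 15.7, 19.6, 9.89, 11.7 and 16.7 CPM in NXT-Exo 1 to 5 and at 9.26 CPM in Ctl-Exo 5. Ctl-Exo 5 was the lowest library, but its interval of 5.78 to 14.8 CPM, from 17 reads, held NXT-Exo 3 and NXT-Exo 4. The NXT-Exo mean was 14.7 ± 3.89 CPM (SD, n = 5).

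rno-miR-195-3p was close to its partner arm in mean level but not in NXT-Exo 4, where it had 25 reads against 15. It was at 12.3, 18.7, 8.99, 19.5 and 15.7 CPM in NXT-Exo against 8.71 CPM in Ctl-Exo 5, with an interval of 5.36 to 14.2 CPM. Ctl-Exo 5 was again the lowest, just under NXT-Exo 3. Scaled to the listed totals it was no longer the lowest, at 8.46 CPM against 8.38 CPM in the lowest NXT-Exo library.

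rno-miR-497-5p was the most variable of the members that were tested, at 4.33, 7.23, 8.99, 17.2 and 4.695 CPM in NXT-Exo against 11.4 CPM in Ctl-Exo 5. NXT-Exo 4 stood above Ctl-Exo 5 and the other 4 NXT-Exo libraries below it. NXT-Exo 4 was also the shallowest library, in which this level rested on 22 reads. Of the 467 tested miRNAs, 86.1% had a smaller SD over NXT-Exo on the log2 scale. This ranking was not matched for level either, and miR-497-5p averaged 19.7 reads.

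rno-miR-15a-5p had 11, 16, 1, 2 and 24 reads in NXT-Exo 1 to 5 and 0 in Ctl-Exo 5. The mean over NXT-Exo, 3.35 ± 2.36 CPM (SD, n = 5), was at least 2.05-fold higher than the floor of 3 reads, but NXT-Exo 3 and NXT-Exo 4 lay under that floor. These reads were a small part of those with the miR-15a start. The table also lists miR-15-x, a name without the rat prefix, whose sequence is the 19 bases of rno-miR-15a-5p with 3 more at the 3′ end.
rno-miR-15a-5p: tAGCAGCAcataatggttt
miR-15-x: tAGCAGCAcataatggtttgtg

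miR-15-x held 400 reads over the 6 libraries against 54 for the shorter sequence. It was at 14.7, 25.9, 35.5, 27.4 and 31.3 CPM in NXT-Exo 1 to 5 and at 19.6 CPM in Ctl-Exo 5, which lay above NXT-Exo 1 and below the other 4. With both sequences added together the levels were 18.3, 30.7, 36.0, 28.9 and 37.6 CPM in NXT-Exo against 19.6 CPM in Ctl-Exo 5. Ctl-Exo 5 then lay within the NXT-Exo range, not below it. The shorter sequence was 20, 15.7, 1.25, 5.41 and 16.7% of the sum in NXT-Exo 1 to 5. How reads were divided between the listed lengths was not tested.

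**Figure D2:**
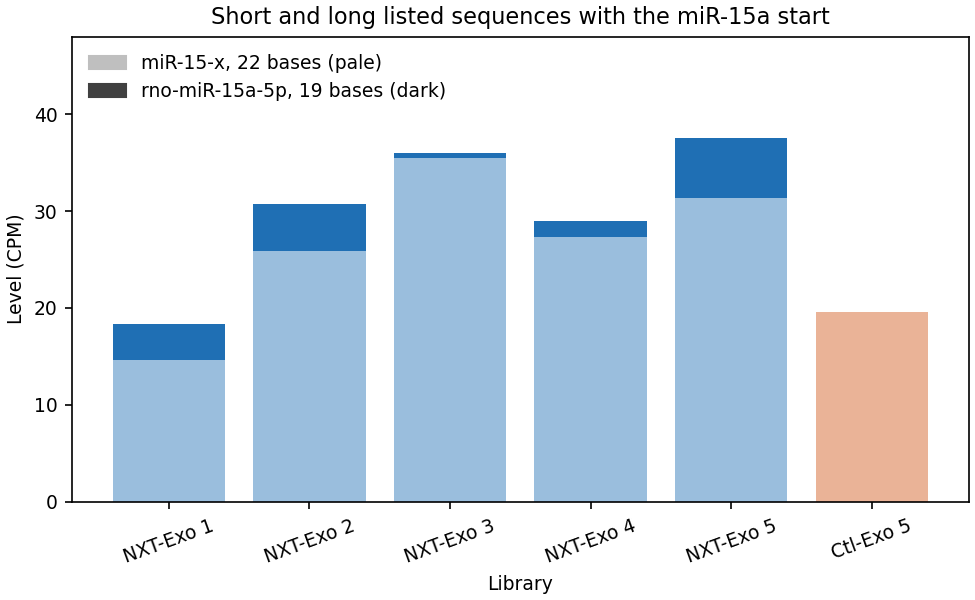
Level in CPM of rno-miR-15a-5p (19 bases, dark) stacked on miR-15-x (22 bases, pale), which starts with the same 19 bases, in each NXT-Exo library (blue) and in Ctl-Exo 5 (orange). The shorter sequence is absent from Ctl-Exo 5, while the sum there, 19.6 CPM, lies above NXT-Exo 1 and below the other 4.

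For miR-16-5p the same question hardly arose. miR-16-z, which has its first 20 bases, and miR-16-x, which is 2 bases longer, held 175 and 18 reads in all against 46900 for rno-miR-16-5p. The rat-named sequence was 99.4 to 99.8% of the 3 together in every library.

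In order of mean NXT-Exo level the members ran from miR-16-5p over miR-15b-5p and miR-15b-3p to miR-195-3p, miR-195-5p, miR-497-5p, miR-15a-5p and miR-16-3p. In this order miR-15a-5p is the 19-base sequence alone. With miR-15-x added its mean was 30.3 CPM in NXT-Exo, and the sum stood above both arms of miR-195 in every library. The first 3 did not overlap with each other or with any lower member over the NXT-Exo libraries. From miR-195-3p on, each member overlapped with the next, so the order of such neighbours is not resolved beyond the spread. Both arms of miR-195 nevertheless stood above miR-15a-5p and miR-16-3p in all NXT-Exo libraries, and miR-497-5p above miR-16-3p. Ctl-Exo 5 had the same first 3, followed by miR-497-5p at 11.4 CPM and miR-195-5p at 9.26 CPM.

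Against Ctl-Exo 5, no tested family member had a log2 fold change whose 95% interval left out 0. Ctl-Exo 5 did lie outside the NXT-Exo range for some members, as given below. Of the 8 members, 6 had a mean of at least 10 reads and entered the edgeR quasi-likelihood fit over 467 miRNAs. None was called at a Benjamini-Hochberg FDR under 0.05 with a fold change of at least 2 or at most 0.5, and the share called over all tested miRNAs was 0%. At an unadjusted p under 0.05, 24 of the 467 miRNAs passed in edgeR and 29 in DESeq2, which also called 0, and no member was among the 24. With 1 control library the fit assumes that Ctl-Exo varies as NXT-Exo does. In pools of vesicles, fewer vesicles from a source and fewer copies per vesicle cannot be told apart.

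The 3 abundant members all had a negative log2 fold change whose interval included 0. The log2 fold change of miR-16-5p was -0.26 (SE 0.21, 95% interval -0.72 to 0.21, edgeR FDR = 0.873). For miR-15b-5p it was -0.13 (SE 0.25, interval -0.67 to 0.42, edgeR FDR = 0.971), and for miR-15b-3p -0.18 (SE 0.23, interval -0.68 to 0.32, edgeR FDR = 0.911). All 3 intervals hold 0 and leave out a 2-fold change in either direction.

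Both arms of miR-195 had a positive one, with wider intervals. The log2 fold change of miR-195-5p was 0.68 (SE 0.55, 95% interval -0.53 to 1.89, edgeR FDR = 0.873) and that of miR-195-3p 0.78 (SE 0.58, interval -0.49 to 2.04, edgeR FDR = 0.873). miR-497-5p, from the same transcript, had a log2 fold change of -0.50 (SE 0.75, interval -2.14 to 1.14, edgeR FDR = 0.947). A 2-fold increase of these 3 lies inside their intervals and was not detectable with these libraries. A 2-fold decrease lies inside the interval of miR-497-5p only. The chi-square per degree of freedom of counts over the NXT-Exo libraries averages 1 for counting noise alone. It was 2.38 for miR-195-5p, 2.92 for miR-195-3p and 6.46 for miR-497-5p. For the abundant members, which have more reads, it was 78.0 (miR-16-5p), 55.1 (miR-15b-5p) and 4.88 (miR-15b-3p).

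As a group, 2 of the 6 tested members had a fold change above 0 on the log2 scale and 4 below, with a median of -0.15 against 0.04 over all 467. Ctl-Exo 5 lay above all NXT-Exo libraries for 2 members (miR-16-5p and miR-15b-3p), a position that 15.8% of all tested miRNAs had. It lay below all of them for 2 (miR-195-5p and miR-195-3p), a position that 21.6% had, and within the range for the other two. With miR-15-x added to miR-15a-5p, the log2 fold change of the sum was 0.63 (SE 0.45, edgeR FDR = 0.866).

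**Figure D3:**
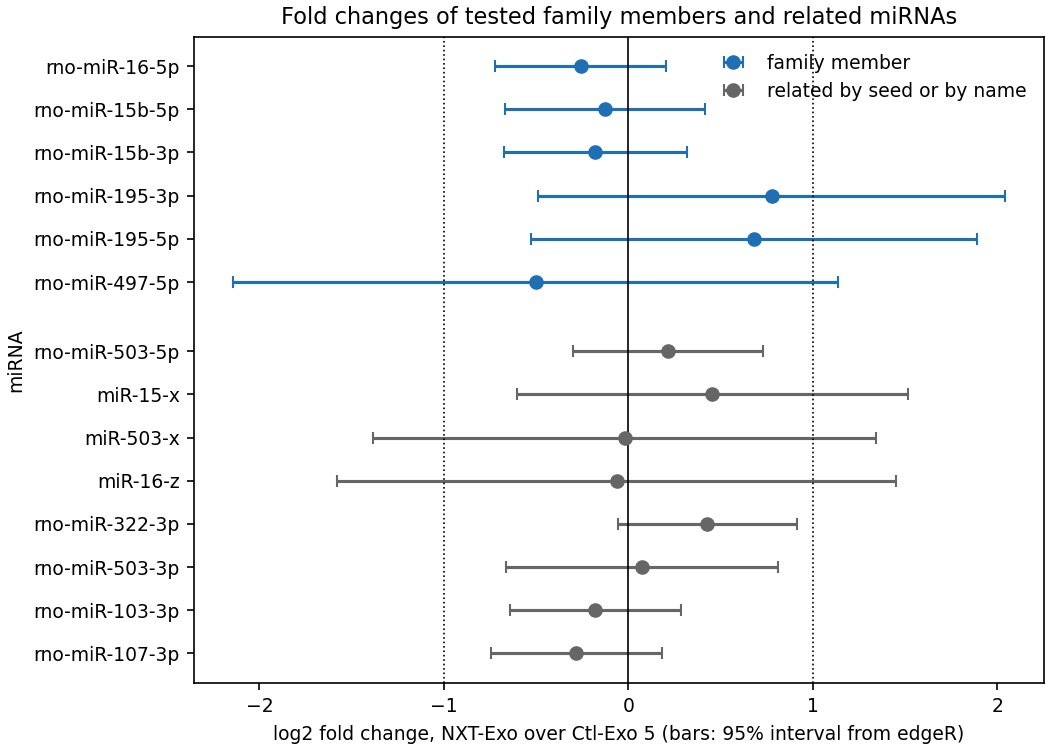
log2 fold change of NXT-Exo over Ctl-Exo 5 with its 95% interval from edgeR for the 6 tested family members (blue) and 8 miRNAs related by seed or by name (grey), with a solid line at 0 and dotted lines at a 2-fold change. Every interval includes 0, and those of miR-16-5p, miR-15b-5p and miR-15b-3p stay within the dotted lines.

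Ratios within a library need no scaling factor, and they put the members against each other. rno-miR-16-5p made up 81.9, 79.7, 78.1, 80.5 and 78.7% of the reads of the 5p members in NXT-Exo 1 to 5 and 81.3% in Ctl-Exo 5. rno-miR-15b-5p made up 17.3, 19.5, 21.4, 18.8 and 20.6% in NXT-Exo and 18.2% in Ctl-Exo 5. The 2 shares ran opposite to each other, as they must when they fill nearly the whole, and Ctl-Exo 5 lay inside both ranges.

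The remaining 3 of these members shared the small rest of the reads. miR-195-5p held 0.398 ± 0.126% in NXT-Exo (SD, n = 5) and 0.209% in Ctl-Exo 5, below all NXT-Exo libraries, with an interval of 0.131 to 0.335% that took in NXT-Exo 3 and NXT-Exo 4. miR-497-5p held 0.218 ± 0.113% (SD, n = 5) and 0.259%. miR-15a-5p held 0.092 ± 0.065% (SD, n = 5) and 0 of 8117 reads in Ctl-Exo 5, where the interval reaches 0.047%. That share counts the 19-base sequence only, and the longer miR-15-x had 36 reads in Ctl-Exo 5.

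The arms of the hairpins were used to very different degrees. The 3p arm of miR-15b held 18.3, 17.0, 15.97, 14.4 and 15.6% of the reads of both arms in NXT-Exo 1 to 5 and 16.6% in Ctl-Exo 5. The 3p arm of miR-16 held 0.066 ± 0.031% in NXT-Exo (SD, n = 5) and 0 of 6599 reads in Ctl-Exo 5, with an upper bound of 0.058%. This counts rno-miR-16-3p only. A sequence listed without the rat prefix, miR-16-y, had 10, 15, 7, 6 and 5 reads in NXT-Exo 1 to 5 and 7 in Ctl-Exo 5. The arm it comes from was not tested. For miR-195 the arms were about equal, with 44.0, 48.8, 47.6, 62.5 and 48.4% on the 3p arm in NXT-Exo and 48.5% in Ctl-Exo 5. The last value rests on 33 reads and has an interval of 32.5 to 64.8%, while NXT-Exo 4, the highest, rests on 40 reads.

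The exact permutation test over the 6 libraries, two-sided, was run on these 5 shares and 3 arm percents and gave p = 0.167 to 1, and 0.667 to 1 after Benjamini-Hochberg adjustment over the 8. With 1 control library the smallest p it allows is 0.167.

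**Figure D4:**
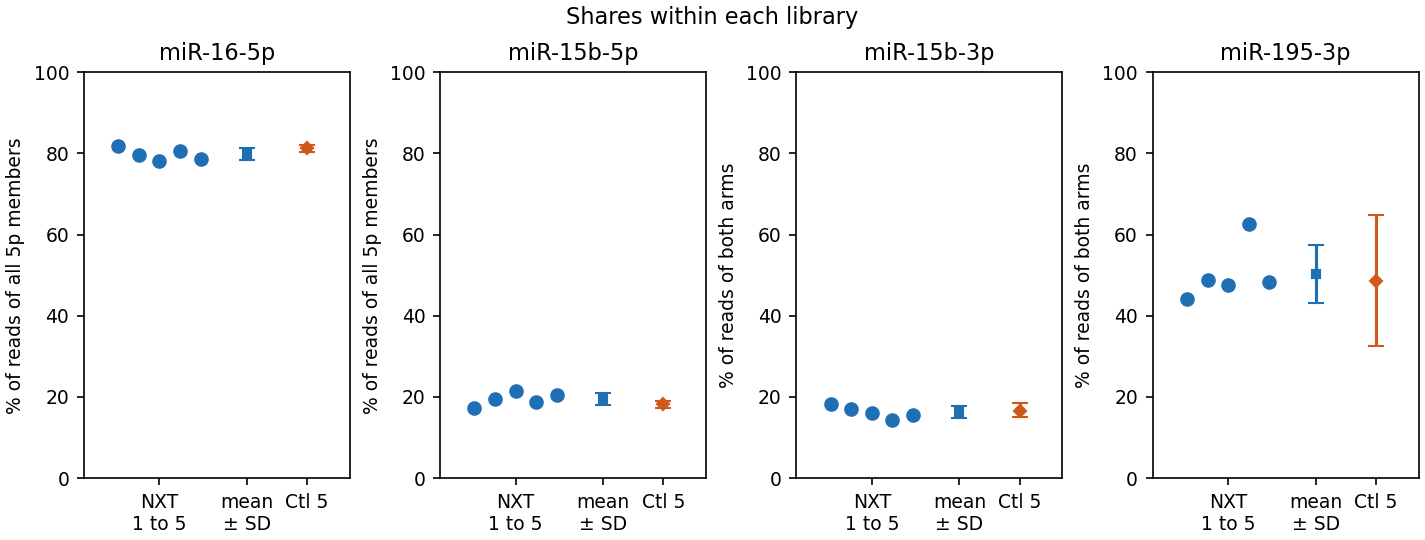
Percent of the reads of all 5p members held by miR-16-5p and miR-15b-5p, and percent of the reads of both arms held by miR-15b-3p and miR-195-3p, in each NXT-Exo library (circles, then the mean ± SD as a square) and in Ctl-Exo 5 (diamond with its 95% Wilson interval). Ctl-Exo 5 lies inside the NXT-Exo range in all 4 panels, and NXT-Exo 4 stands apart for miR-195-3p at 62.5%.

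Other listed miRNAs carry the seed too. Besides the 5 members, 5 listed sequences had bases 2 to 8 in common with them, namely rno-miR-322-5p, miR-15-x, miR-16-z, miR-16-x and miR-424-x, and rno-miR-503-5p and miR-503-x shared bases 2 to 7. rno-miR-322-5p, a member of the same seed family from an X-linked cluster with miR-503, is shown with the seed in capitals.
rno-miR-322-5p: cAGCAGCAattcatgttttgga

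It had 10, 11, 2, 4 and 28 reads in NXT-Exo 1 to 5 against 3 in Ctl-Exo 5, which was too few to test. Its other arm, rno-miR-322-3p, was far higher, at 1247, 1402, 1337, 1567 and 1597 CPM in NXT-Exo against 1062 CPM in Ctl-Exo 5. Ctl-Exo 5 was the lowest of the 6 libraries under all 3 scalings, and the log2 fold change was 0.43 (SE 0.22, edgeR FDR = 0.740). Most reads of the miR-322 hairpin thus came from the arm without the family seed, the reverse of miR-16.

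rno-miR-503-5p, of the same cluster, stood at 155, 145, 137, 170 and 183 CPM in NXT-Exo against 136 CPM in Ctl-Exo 5. Ctl-Exo 5 was the lowest by a narrow margin, which was lost with median-of-ratios factors or listed totals, and the log2 fold change was 0.22 (SE 0.24, edgeR FDR = 0.890). miR-503-x was at 5.40 to 19.3 CPM in NXT-Exo against 12.5 CPM in Ctl-Exo 5, and miR-16-z at 4.05 to 19.5 CPM against 11.98 CPM, both within the range. rno-miR-503-3p was at 56.3 to 105 CPM in NXT-Exo against 80.0 CPM in Ctl-Exo 5.

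The metabolic miRNAs rno-miR-103-3p and rno-miR-107-3p, whose seed overlaps that of this family with a shift, were both highest in Ctl-Exo 5, though not when scaled to the listed totals. miR-103-3p was at 640 to 864 CPM against 867 CPM, and miR-107-3p at 145 to 184 CPM against 194.9 CPM. Of the 9 miRNAs on this list of relatives, 6 were listed and 5 tested, 3 with a log2 fold change above 0 and 2 below, with a median of 0.08. None passed, and the lowest edgeR FDR was 0.740. Over all 467 tested miRNAs, Ctl-Exo 5 lay above all NXT-Exo libraries for 15.8% and below all of them for 21.6%.

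The miRNAs whose levels ran most like those of the 2 abundant members were found by the SD, over the 6 libraries, of the difference in log2(CPM + 1), among 461 tested miRNAs outside the family. For miR-16-5p these were rno-let-7g-5p (0.0607), rno-miR-107-3p (0.0607) and rno-miR-1839-5p (0.0612), against a median of 0.385. let-7g-5p was at 4340 to 5617 CPM in NXT-Exo against 6293 CPM in Ctl-Exo 5, also the highest of the 6 except when scaled to the listed totals. For miR-15b-5p they were rno-let-7d-5p (0.0604), rno-miR-26a-5p (0.103) and rno-let-7f-5p (0.105), against a median of 0.420. miR-16-5p and miR-15b-5p followed each other with an SD of 0.138, and 3.47% of the compared miRNAs ran closer to miR-16-5p than miR-15b-5p did. The SD of miR-195-5p against miR-16-5p was 0.533. These values describe 6 libraries that share depth and scaling factors.

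Because miR-16 is abundant in blood cells, blood-cell miRNAs are given beside it. Of 5 red blood cell miRNAs, 4 were listed, and none was at 0. Their summed level was 157715 to 260257 CPM in NXT-Exo against 210386 CPM in Ctl-Exo 5, within the range, and was almost wholly that of rno-miR-486, at 155726 to 257143 CPM against 207541 CPM. rno-miR-144-3p and rno-miR-144-5p, at 137 to 356 CPM and 219.7 to 493 CPM in NXT-Exo, also had Ctl-Exo 5 within their ranges, at 233 and 412 CPM. rno-miR-451-5p was at 1632, 2280, 2266, 3239 and 1972 CPM in NXT-Exo against 2201 CPM in Ctl-Exo 5. Among NXT-Exo libraries, NXT-Exo 1 was the lowest and NXT-Exo 4 the highest in both miR-451-5p and miR-16-5p. miR-486, miR-144-3p and miR-144-5p were also lowest in NXT-Exo 1, but they were highest in NXT-Exo 3. In NXT-Exo 4 they stood at 200055, 285 and 369 CPM. Ctl-Exo 5 was the highest library for miR-16-5p, whereas for miR-451-5p it was within the range. rno-miR-23a-3p, often set against miR-451 as a measure of haemolysis, was at 29060 to 44161 CPM in NXT-Exo against 38069 CPM in Ctl-Exo 5.

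All 9 platelet and white blood cell miRNAs were listed and detected. Their summed level was 25719 to 29542 CPM in NXT-Exo against 31263 CPM in Ctl-Exo 5, above all NXT-Exo libraries, as for miR-16-5p. As for miR-16-5p too, scaling to the listed totals brought Ctl-Exo 5 into the range, at 30371 CPM against 24265 to 32336 CPM. The sum was mostly that of rno-miR-142-5p, at 16347 to 19635 CPM in NXT-Exo against 20887 CPM in Ctl-Exo 5. Singly, miR-142-5p, miR-223-3p and miR-146a-5p had Ctl-Exo 5 above all NXT-Exo libraries, a position that 15.8% of all 467 tested miRNAs had. The rest of the list had Ctl-Exo 5 within the range. Of the 9, 2 had a log2 fold change above 0 and 7 below, with a median of -0.20, and none was called in edgeR. The part of blood cells in the level of miR-16-5p was not tested.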

How the data were processed

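The analysis used small RNA counts of serum exosomes from 5 NXT-Exo libraries and 1 Ctl-Exo library. With ACGT101-miR the authors took out adapter dimers, junk reads and reads of other RNA families, and they deposited a raw read count per listed miRNA sequence and library. The deposited TPM values, in which the authors scaled each count to a library total without dividing by length, were used here only to obtain the library totals they imply. The genome build is Rnor_6.0 according to the submitters' processing notes, and the aligner and miRNA database release are not given in the sources used here. The table has 8 further value columns, counts and TPM named Ctl-Exo 1 to 4, which by name are further controls. They matched none of the sample labels used here and were not analysed, so every comparison rests on 1 control library by that choice. Groups and replicate numbers came from the sample titles, and the batch field of the labels repeats the library names.

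Counts were fitted with edgeR 4.0.16 in R 4.3.3 (TMM, glmQLFit and glmQLFTest) over the 467 of 865 miRNAs with reads that had a mean of at least 10. A call needed an FDR under 0.05 (Benjamini-Hochberg) and a fold change of at least 2 or at most 0.5. The fit has 4 residual degrees of freedom, all from NXT-Exo. The SE is the log2 fold change divided by the square root of F. Fold changes use a prior count of 0.125. Levels below 3 reads were taken as the floor. DESeq2 1.42.0 was an alternative. Plots were made with matplotlib 3.10.9, and the remaining calculations with scipy 1.17.1, pandas 2.3.3 and numpy 2.4.6 under Python 3.11.15. Each library counted as 1 sample. Pairs of libraries differed beyond counting noise (chi-square per degree of freedom 38.1 to 272), which does not tell whether they came from different rats. The fit was tested on simulated data.

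The named miRNAs are all 8 members, every listed sequence with their seed or bases 2 to 7 of it (values where the mean reached 10 reads), a list of relatives by name, the 3 miRNAs most like each of the 2 most abundant members, and blood-cell lists. rno-miR-322-5p and the shorter sequences of few reads were named in addition after their values were seen. Members and lists were chosen with earlier results of these data known. Mature sequences and GRCr8 positions are from RefSeq, and no position was converted between builds. Alternatives were other scaling factors, no filter, DESeq2, a prior count of 2, the median of NXT-Exo, other denominators and leaving out each NXT-Exo library. Adding up rows that share their first 18 bases was chosen after seeing the data.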

Additional observations from a re-analysis of the deposited data

Results flagged for a closer look

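Over the 5 NXT-Exo libraries, 21 sets of values were checked for a library far from the others (the 8 members, 5 other sequences with the seed, and 8 shares), by the gap to the nearest library divided by the range, with a critical value of 0.71. Chance flags about 1 in 20, and 3 passed. miR-424-x, listed without the rat prefix, had 2, 0, 1, 1 and 43 reads in NXT-Exo 1 to 5 and 0 in Ctl-Exo 5, a gap of 0.930 with NXT-Exo 5 the high library. The related miR-424-y likewise had 1, 0, 0, 3 and 38 reads in NXT-Exo against 0 in Ctl-Exo 5. The 3p arm percent of miR-195 was 62.5% in NXT-Exo 4 on 40 reads and 44.0 to 48.8% in NXT-Exo 1, 2, 3 and 5, which made the gap 0.741. miR-16-x had 2 to 5 reads a library and a gap of 0.730, with NXT-Exo 2 low. Its chi-square per degree of freedom over NXT-Exo was 0.318, so its counts did not vary beyond counting noise.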

How the results depend on the processing

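All 72 single fold changes of tested members computed under the alternatives kept their direction, and none passed the threshold (lowest FDR 0.618). The count of called miRNAs was 0 under every alternative, including 0 when each NXT-Exo library was left out in turn. The median log2 fold change of the tested members ran from -0.20 to -0.07 with 1 NXT-Exo library left out. Without NXT-Exo 4 that of miR-497-5p was -0.87, and Ctl-Exo 5 lay above all its NXT-Exo libraries. The same position was seen for miR-15b-5p without NXT-Exo 3. Over all tested miRNAs, 91 of 488 had it without NXT-Exo 4 and 95 of 471 without NXT-Exo 3. With no filter on reads, Ctl-Exo 5 lay above all NXT-Exo libraries for 132 of 865 miRNAs in place of 74 of 467, a similar share. Among the related miRNAs, 4 of 56 values changed sign, all with 1 NXT-Exo library left out, where miR-503-x ran from -0.24 to 0.17, miR-16-z from -0.28 to 0.15 and miR-503-3p from -0.021 to 0.18. The cause was not tested. No paired analysis was possible because the libraries used have only replicate number 5 in common, the columns named Ctl-Exo 1 to 4 being left out. Few reads limit the members below 20 CPM, and every comparison is limited by the use of 1 Ctl-Exo library.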

Other observations

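A listed sequence named miR-497-z matched the opposite strand of the RefSeq miR-497 hairpin (GRCr8), at hairpin positions 35 to 58 of 69. It had 14, 3, 15, 1 and 12 reads in NXT-Exo 1 to 5 and 7 in Ctl-Exo 5, so Ctl-Exo 5 lay inside the NXT-Exo range. rno-miR-497-5p itself, on the hairpin's own strand, had 13, 24, 20, 22 and 18 reads in NXT-Exo against 21 in Ctl-Exo 5. The ratio of miR-16-5p to miR-451-5p was 1.05 to 1.54 in NXT-Exo and 1.63 in Ctl-Exo 5, above all NXT-Exo libraries. Among single tested miRNAs, 15.8% had Ctl-Exo 5 in that position. The ratio of miR-16-5p to miR-23a-3p was 0.057 to 0.111 in NXT-Exo and 0.094 in Ctl-Exo 5. That of miR-451-5p to miR-23a-3p was 0.037 to 0.105 and 0.058, so Ctl-Exo 5 lay within the range for both.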
